A study of Mus musculus with 4 samples.

Results

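The genes Runx1, Runx2, Runx3, Cbfb and Cbfa2t3 were examined for SMAD4 binding in alveolar macrophages (AMs) of the mouse, which reside in the airspaces of the lung. They are 5 of the 20923 protein-coding genes that have a curated RefSeq transcript. A SMAD4 peak was assigned to a gene when its summit lay in the gene body or within 100 kb of a transcription start site (TSS) of that gene. By this rule 25 peaks of replicate 1 and 43 peaks of replicate 2 belonged to the 5 genes. A shared region was an interval in which peaks of both replicates overlapped by at least 1 bp, and 23 of the 10964 shared regions of the series were assigned to the 5 genes. Among them, 15 lay at Runx1, 7 at Runx2 and 1 at Cbfb, whereas Runx3 and Cbfa2t3 had none.

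The AMs came from wild-type C57BL/6J mice and were collected by bronchoalveolar lavage and sorted by flow cytometry, with no treatment and no second genotype. Binding was measured by HT-ChIPmentation, in which chromatin is precipitated with antibodies, here against SMAD4, and the transposase Tn5 inserts sequencing adapters on the beads. Of the 4 samples, 2 were SMAD4 precipitations, each with its own peak list, and 2 were inputs, which entered only as the control of the peak calling. With a single condition and 2 replicates no difference could be tested, and all values given here describe these libraries. The files hold no RNA, so neither expression of the 5 genes nor of macrophage markers could be examined.

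RUNX proteins bind DNA through their Runt domain and do so most stably as a heterodimer with CBFβ, the product of Cbfb, which itself makes no contact with DNA. RUNX1 is required for the formation of definitive blood stem cells and acts with PU.1 and C/EBP factors in myeloid cells. RUNX2 is best known as the regulator of osteoblasts, and RUNX3 for its roles in cytotoxic T cells and in dendritic cells that respond to TGFβ. CBFA2T3 (ETO2) is a corepressor of hematopoietic complexes that contain E proteins, TAL1 and GATA factors. SMAD4 is the common partner of the receptor-activated SMADs, and RUNX proteins can form complexes with SMADs. All RUNX genes are transcribed from a distal and a proximal promoter that give proteins with different N termini.

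The strongest regions are shown here as DNA, because they carry the largest SMAD4 signal at these genes, together with a Runx3 peak that only 1 replicate had. Regions of a gene were numbered by the lower of their fold enrichments in the 2 replicates. In most regions this was the fold of replicate 1, so the order mainly follows that replicate. Each line gives the summit base and 100 bases on each side of it, from the plus strand of GRCm38 (mm10), 5′ to 3′. Capitals mark matches to 8 consensus strings on either strand. These strings were TGTGGTT or TGTGGTC for RUNX, GTCTGG for SMAD, GAGGAAGT for PU.1, CAGGAAGT for other ETS factors, TGACTCA or TGAGTCA for AP-1 and GTGGGAA for RBPJ. The C/EBP string was TT, purine, pyrimidine, purine, pyrimidine, AA, and the STAT5 string was TTC, pyrimidine, any base, purine, GAA. No matches to different strings overlapped in these windows.
Runx1 region 1, chr16:92715479-92715679: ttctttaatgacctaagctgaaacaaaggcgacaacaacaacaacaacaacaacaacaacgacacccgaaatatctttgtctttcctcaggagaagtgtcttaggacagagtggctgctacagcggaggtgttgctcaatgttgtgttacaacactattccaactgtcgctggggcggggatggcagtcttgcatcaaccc
Runx1 region 2, chr16:92612558-92612758: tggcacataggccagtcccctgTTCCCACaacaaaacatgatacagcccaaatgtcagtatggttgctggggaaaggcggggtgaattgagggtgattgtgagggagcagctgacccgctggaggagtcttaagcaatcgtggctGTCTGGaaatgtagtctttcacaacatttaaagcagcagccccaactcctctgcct
Runx1 region 3, chr16:92783626-92783826: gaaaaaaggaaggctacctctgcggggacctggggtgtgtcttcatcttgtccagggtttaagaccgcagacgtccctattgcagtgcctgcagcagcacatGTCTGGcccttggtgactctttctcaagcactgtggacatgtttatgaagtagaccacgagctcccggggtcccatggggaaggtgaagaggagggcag
Runx2 region 1, chr17:44653186-44653386: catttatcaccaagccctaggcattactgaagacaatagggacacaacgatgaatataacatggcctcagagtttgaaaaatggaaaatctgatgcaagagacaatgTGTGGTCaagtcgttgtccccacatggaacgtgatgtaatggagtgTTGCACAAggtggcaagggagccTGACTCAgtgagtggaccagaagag
Runx2 region 2, chr17:44709954-44710154: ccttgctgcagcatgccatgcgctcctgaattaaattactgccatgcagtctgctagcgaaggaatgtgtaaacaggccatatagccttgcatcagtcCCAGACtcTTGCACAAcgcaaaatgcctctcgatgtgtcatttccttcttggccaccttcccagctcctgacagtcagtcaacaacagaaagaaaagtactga
Runx3 peak of replicate 2, chr4:135141882-135142082: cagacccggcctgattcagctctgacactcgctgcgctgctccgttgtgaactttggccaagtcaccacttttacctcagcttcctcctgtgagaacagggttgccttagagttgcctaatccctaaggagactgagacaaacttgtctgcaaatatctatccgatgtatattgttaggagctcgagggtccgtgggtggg

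Runx1 region 1, the strongest at this gene, had none of the strings. Runx1 region 2 had a SMAD string 47 bp from the summit and, on the other side of it, an RBPJ string. Runx1 region 3 and Runx2 region 2 each had a SMAD string at the center of the window, 4 bp from the summit in the former and at the summit base in the latter. In Runx2 region 2 it was followed by the C/EBP string TTGCACAA. Runx2 region 1 had a RUNX string 10 bp from the summit, and in addition the same C/EBP letters and an AP-1 string. The Runx3 window had none of the strings.

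Replicate 1 had 16369 peaks and replicate 2 had 19015. Peak values are those of the authors' peak caller, MACS3, and consist of a fold enrichment over the control level at the summit and a q-value, which was at most 0.0434 in replicate 1 and 0.0467 in replicate 2. The number of fragments stacked at a summit was recovered from these values. It had a median of 17 (range 9 to 374) in replicate 1 and 14 (range 7 to 351) in replicate 2. The control level was the genome-wide background at 79.5% and 81.0% of summits, and this background was 2.08 fragments in replicate 1 and 1.22 in replicate 2. Fold enrichments of the 2 replicates are therefore on different scales, and they are given side by side. Intervals are exact 95% intervals and cover counting error only.

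Runx1 lies on the minus strand of chromosome 16 (chr16:92601466-92826074), and its distal and proximal TSSs are 128745 bp apart. It had 16 peaks in replicate 1 and 22 in replicate 2, a mean of 19.0 ± 4.24 (SD, n = 2). Of these, 15 and 16 peaks had a partner in the other replicate, which made up the 15 shared regions. Most of them were away from the TSSs, with 9 in introns, 5 intergenic and 1 in a promoter. Such positions were not counted over all shared regions, so it is not known whether this layout is particular to Runx1. No other gene has a TSS in the window of 329 kb, but 4 regions near the 3′ end were closer to the TSS of the noncoding gene Gm30224 beyond it than to a Runx1 TSS.

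**Figure D1:**
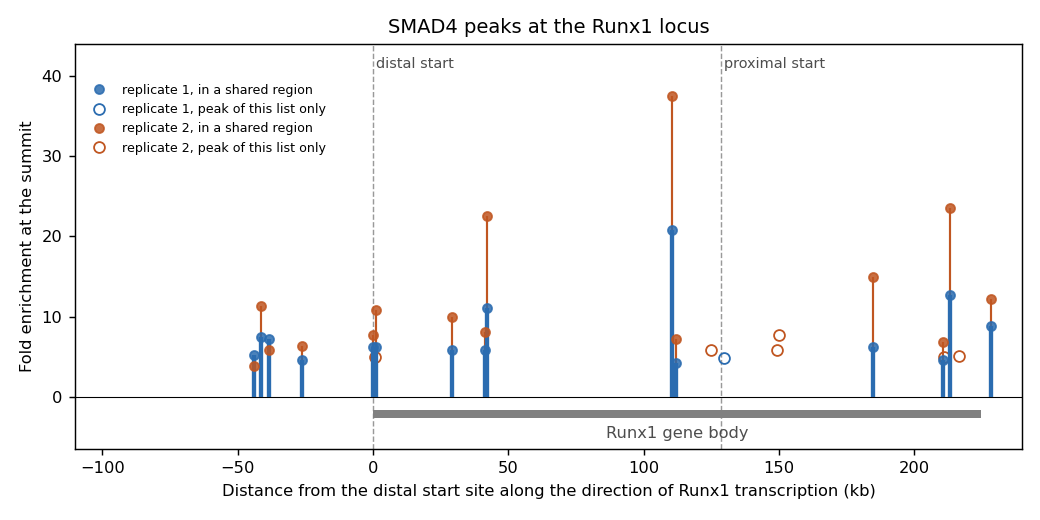
Fold enrichment (vertical axis, ratio over control) of SMAD4 peaks at Runx1 against distance in kb from the distal TSS in the direction of transcription. Blue stands for replicate 1 and orange for replicate 2; filled points on stems are the 15 shared regions, plotted at the regions' common summit, and open points are the 7 peaks found in 1 replicate only. The tallest stem, 18.2 kb upstream of the proximal TSS, reached 20.8 and 37.5.

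Region 1 of Runx1 (chr16:92714749-92716034) lay in the intron between the 2 TSSs, 18.2 kb upstream of the proximal one. Its fold enrichment was 20.8 in replicate 1 and 37.5 in replicate 2. The summit held 63 fragments (48.4 to 80.6) in replicate 1 and 82 (65.2 to 102) in replicate 2, with q-values of 1.08e-65 and 9.53e-114. Both replicates had their highest Runx1 value here, although the fragment intervals of region 2 (26.9 to 52.2 and 38.0 to 67.1) still reached those of region 1. Of all shared regions in the genome, 3.53% were at least as strong by the lower of both folds.

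Regions 2 and 3 came next and lay on opposite sides of region 1. Region 2 (chr16:92612344-92612889) was in an intron near the 3′ end, 84.7 kb downstream of the proximal TSS, with folds of 12.7 and 23.5 and with 38 and 51 fragments. Region 3 (chr16:92783462-92784043), 42.3 kb downstream of the distal TSS and also intronic, had folds of 11.1 and 22.6. Its summits held 45 and 49 fragments, and the control level of replicate 1 was 3.14 there, above the background. The intervals of the fragment counts of these regions overlapped in each replicate, so that their order was not resolved at this depth.

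The remaining 12 Runx1 regions had folds of 4.22 to 8.77 in replicate 1 and 3.86 to 14.9 in replicate 2. Region 4 (chr16:92597508-92598120; 8.77 and 12.2) lay just past the 3′ end of the gene, 1710 bp upstream of the TSS of Gm30224. Region 5 (chr16:92867145-92867713; 7.47 and 11.3) was intergenic, 41.4 kb upstream of the distal TSS, and region 6 (chr16:92640922-92641380; 6.17 and 14.9) was intronic. Each summit of these regions held between 18 and 32 fragments, and all 3 differed from region 1 by more than the counting intervals in both replicates. Counted along the gene, 4 regions lay upstream of the distal TSS (folds 4.55 to 7.47 and 3.86 to 11.3), and 1 lay at it. Between the TSSs there were 6 (4.22 to 20.8 and 7.22 to 37.5), and downstream of the proximal TSS 4 (4.55 to 12.7 and 6.77 to 23.5). Summits of neighboring regions were between 878 and 72822 bp apart, with 5 of the 14 gaps under 3 kb. In 13 of the 15 regions the fold was higher in replicate 2, which had the lower background. The exceptions were both upstream of the distal TSS, with folds of 7.15 and 5.87 in region 9 and 5.2 and 3.86 in region 15. At region 15 the control level of replicate 2 was 1.85, above its background of 1.22.

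The distal TSS was the only start site of the 5 genes with a shared region in its promoter. Region 8 of Runx1 (chr16:92825931-92826164) had its summit 26 bp downstream of this TSS, with folds of 6.17 and 7.67. Its summit held 18 fragments (10.7 to 28.4) in replicate 1 and 16 (9.15 to 26.0) in replicate 2, and the q-values were 2.43e-09 and 4.11e-11. Region 7 lay in the first intron, 1.12 kb downstream of the TSS, with folds of 6.17 and 10.8. At the proximal TSS, no shared region was found. A peak of replicate 1 alone lay in an exon 886 bp downstream of it (chr16:92696373-92696492), with a fold of 4.87 and 14 fragments, and 51.6% of the replicate 1 peaks with a fold within 10% of this value had a partner. Replicate 2 alone had 6 further Runx1 peaks, all intronic, with folds of 4.96 to 7.67. The strongest of them (chr16:92675876-92676078) had 16 fragments, and 70.1% of the replicate 2 peaks of like fold had a partner.

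Runx2 (chr17:44495987-44814797, minus strand) had 8 peaks in replicate 1 and 15 in replicate 2, a mean of 11.5 ± 4.95 (SD, n = 2). Partners were found for 7 and 10 of them, and several peaks of replicate 2 joined into the same region, which gave 7 shared regions. All 7 were intronic, a share that was not counted over all shared regions. They were all nearest to a Runx2 TSS, and all lay downstream of the proximal TSS. At Runx1, by contrast, 6 of 15 lay between the TSSs and 5 at or upstream of the distal one. The 7 summits fell within 71944 bp of a gene body of 318811 bp.

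**Figure D2:**
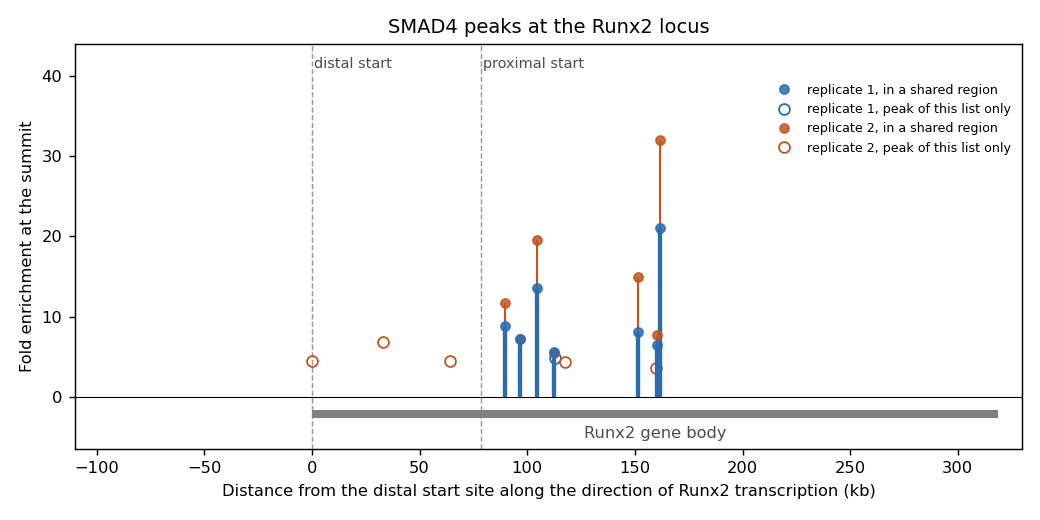
Fold enrichment (vertical axis, ratio over control) of SMAD4 peaks at Runx2 against distance in kb from the distal TSS in the direction of transcription, with colors and symbols as for Runx1. The 7 shared regions lay 10.9 to 82.9 kb downstream of the proximal TSS, and the single peak at the distal TSS (fold 4.51) belonged to replicate 2.

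Region 1 of Runx2 (chr17:44652786-44653814), 82.9 kb downstream of the proximal TSS, had folds of 21.1 and 32.0. Its summit held 64 fragments (49.3 to 81.7) in replicate 1 and 70 (54.6 to 88.4) in replicate 2, with q-values of 3.67e-67 and 2.13e-92. These counts overlapped with those of region 1 of Runx1 in both replicates, and the strongest regions of the 2 genes were not distinguishable at this depth. By the lower fold, 3.35% of all shared regions were at least as strong.

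Region 2 of Runx2 (chr17:44709681-44710400), 26.1 kb downstream of the proximal TSS, had folds of 13.6 and 19.6, from 41 fragments (29.4 to 55.6) and 55 (41.4 to 71.6). The other 5 regions had folds of 5.52 to 8.77 in replicate 1 and 5.44 to 14.9 in replicate 2. Region 3 (chr17:44724941-44725372; 8.77 and 11.7) was the closest to the proximal TSS, 10.9 kb downstream of it. Regions 5 and 6 had folds of 7.15 and 7.22 and of 6.5 and 7.71. Among these, region 4 (8.12 and 14.9) was the widest of all regions described here, with 1335 bp, and region 7 had almost the same fold in both replicates (5.52 and 5.44). In replicate 2 the control level was above the background of 1.22 at regions 2, 6 and 7 (1.85, 1.85 and 1.39), which lowers their folds there. The summit of region 7 held 16 and 12 fragments.

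At the distal Runx2 TSS a peak was called in replicate 2 only (chr17:44814677-44814795). Its summit was 52 bp upstream of a TSS, and it had a fold of 4.51, 9 fragments (4.12 to 17.1) and a q-value of 0.000455. Of the 3917 replicate 2 peaks with a fold within 10% of this one, 21.6% had a partner in replicate 1, so that a missing partner was the usual case at this strength. The other 4 peaks found only in replicate 2 had folds of 3.61 to 6.77, and the strongest was closest to a TSS of Supt3, the neighboring gene that overlaps Runx2. Replicate 1 had a single peak of its own, with a fold of 4.87.

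Runx3 (chr4:135120645-135177990, plus strand) had no peak in replicate 1 and 2 peaks in replicate 2. The stronger (chr4:135141840-135142098) was intronic, between the TSSs, 21.3 kb downstream of the distal and 10.6 kb upstream of the proximal TSS. It had a fold of 10.4, 22 fragments (13.8 to 33.3) and a q-value of 3.09e-18. Among the 1791 replicate 2 peaks with a fold within 10% of it, 92.6% had a partner in replicate 1, so that the absence of a partner was uncommon at this strength. The weaker peak (chr4:135192917-135193035) was intergenic, 40.4 kb downstream of the proximal TSS, with a fold of 4.96 and 10 fragments. A peak list holds only positions past its threshold, so the level of replicate 1 at these positions is unknown.

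Cbfb (chr8:105170674-105217989, plus strand), which encodes the common partner of the RUNX proteins, had 1 shared region (chr8:105225820-105226145). It was 55.3 kb downstream of the Cbfb TSS, in an intron of a neighboring gene and 822 bp from the TSS of D230025D16Rik, with folds of 5.85 and 6.32 and with 17 and 13 fragments. Replicate 2 had 2 more peaks, with folds of 7.22 and 5.41, which were nearest to the carboxylesterase genes Ces3b and Ces4a. None of the peaks assigned to Cbfb was thus nearest to its own TSS, and 7 other genes have a TSS in its window of 200 kb. Cbfa2t3 (chr8:122625136-122699109, minus strand) had a single peak in replicate 2 (chr8:122593174-122593662, fold 6.77, 14 fragments), which was nearest to Aprt.

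Of the 25 peaks of replicate 1 at the 5 genes, 92.0% (74.0 to 99.0) had a partner in replicate 2. Of the 43 peaks of replicate 2, 62.8% (46.7 to 77.0) had a partner in replicate 1. The mean of both shares was 77.4% ± 20.7 (SD, n = 2). Over all peaks these shares were 69.4% and 59.2%, with a mean of 64.3% ± 7.22. In replicate 1 the interval at the 5 genes lay above the share over all peaks, and in replicate 2 it included it. Across the 23 shared regions, folds of the replicates had a Spearman correlation of 0.822, and of 0.782 across all shared regions. The fold was higher in replicate 2 in 20 of 23 regions (87.0%), close to the 87.2% over all regions. The background was lower in replicate 2 (1.22 against 2.08 fragments), which gives a higher fold at the same fragment count. Region 10 of Runx1, for example, had 17 fragments in both replicates but folds of 5.85 and 8.12. The direction therefore does not describe stronger binding in replicate 2. The median folds were 6.5 and 9.93 at the 5 genes and 6.82 and 9.48 in all.

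**Figure D3:**
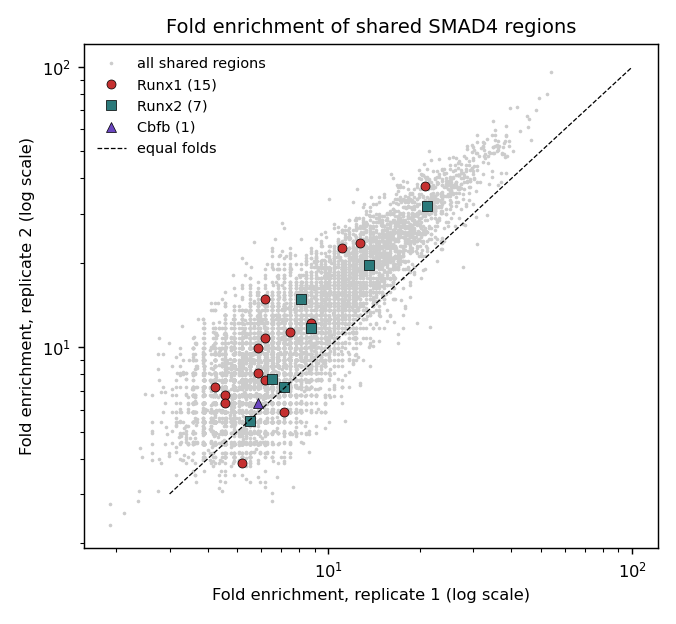
Fold enrichment of all 10964 shared regions (gray) in replicate 1 (horizontal) and replicate 2 (vertical), both on log scales, with the regions of Runx1, Runx2 and Cbfb in color and a dashed line of equal folds. Of the 23 colored points, 20 lie above the line, and the 2 strongest are region 1 of Runx1 (20.8 and 37.5) and region 1 of Runx2 (21.1 and 32.0). Replicate 2 has the lower background, which raises its folds.

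Runx1 was among the genes with the most shared regions. Of all protein-coding genes, 54.9% had at least 1 shared region in the same kind of window and 21.5% were the nearest gene of at least 1. Among the 5 genes these counts were 3 and 2. At least 1 peak of replicate 1 was assigned to 64.1% of all genes and to 3 of the 5, and at least 1 peak of replicate 2 to 68.8% and to all 5. Having a region at all was thus common, and the counts of the 5 genes did not stand out from it.

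The median gene had 1 shared region and the maximum was 21. Only 17 genes (0.0813%) had 15 or more, Runx1 included. Since large windows hold more regions, density was compared too, and the 4.56 regions per 100 kb at Runx1 were reached by 119 genes (0.569%). As many as the 14 regions that had Runx1 as their nearest gene, at any distance, were found for 12 genes (0.0574%). Runx2 had as many as or more regions than most genes (7, reached by 719 genes or 3.44%), but its density of 1.67 per 100 kb was reached by 12.6% of genes. Genes whose windows overlap share regions, so these percentages describe the order of genes and are not p-values.

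**Figure D4:**
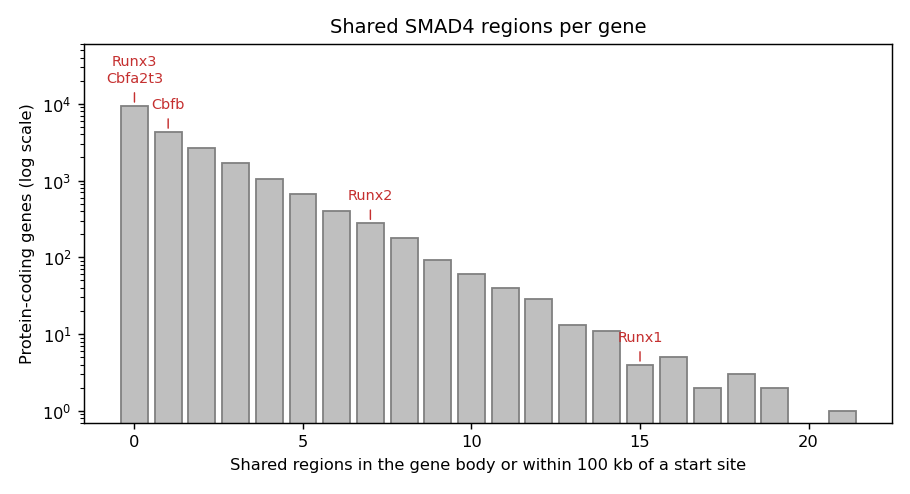
Number of protein-coding genes (vertical axis, log scale) by the number of shared SMAD4 regions in the gene body or within 100 kb of a TSS (horizontal axis). Runx1 stands at 15 regions and Runx2 at 7, whereas Cbfb has 1 and Runx3 and Cbfa2t3 have 0.

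RUNX strings were present in the summit windows of 8 of the 23 regions (34.8%, 16.4 to 57.3), compared with 16.3% (15.6 to 17.0) of all shared regions. At Runx1 they were in 6 of 15 regions (regions 4, 5, 7, 8, 13 and 14) and at Runx2 in 2 of 7 (regions 1 and 3). The intervals of the 23 and of all regions overlapped. The STAT5 string, which is bound by the effector of GM-CSF signaling, was found in 4 of the 23 windows (17.4%, 4.95 to 38.8) and in 4.27% (3.9 to 4.66) of all. These were regions 7 and 11 of Runx1 and regions 4 and 7 of Runx2. Here the intervals did not overlap, but this was 1 of 8 strings compared, regions of a gene are not independent, and no test was made.

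The other strings showed smaller differences. The SMAD string was in 3 windows (13.0%, against 11.2% of all), and the C/EBP string in 5 (21.7%, against 23.6%). The AP-1 string was in 3 windows (13.0%, against 8.91%), all of them at Runx2, and the RBPJ string in 1 (4.35%, against 4.14%). No window had the PU.1 or the ETS string, which were in 8.0% and 5.62% of all windows, and with 23 windows a count of 0 has an upper limit of 14.8%. Both were searched as exact letters, unlike the C/EBP and STAT5 strings, so variants of them were not counted. None of the 8 strings was found in 5 of the 23 windows (21.7%) and in 39.6% of all. Median GC content was 46.3% in the 23 windows and 43.8% in all.

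**Figure D5:**
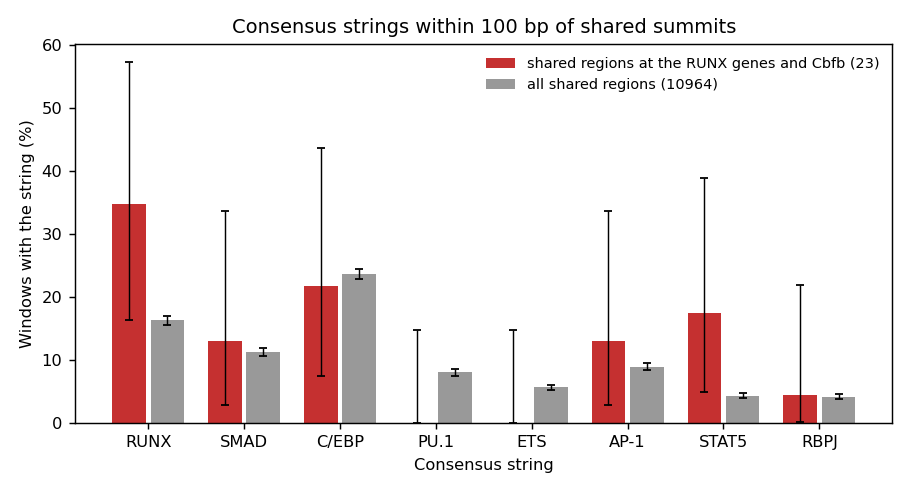
Share of windows reaching 100 bp to each side of summits (vertical axis, percent) that held each of 8 consensus strings, for the 23 shared regions at Runx1, Runx2 and Cbfb (red) and for all 10964 shared regions (gray). Bars are shares and whiskers exact 95% binomial intervals; RUNX reached 34.8% against 16.3%, and STAT5 17.4% against 4.27%.

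Region 8 at the distal Runx1 TSS had 3 RUNX strings in its window, a number reached by 5 of all 10964 windows (0.0456%). A pair of these strings stood in tandem, with first bases 8 bp apart on the same strand. The same arrangement was found at the distal TSSs of Runx2 and Runx3, in the RefSeq promoter sequences (GRCm38.p6, 250 bases before to 50 after the start). These lines give 30 bases around the pair on the strand of the gene, 5′ to 3′, where the RUNX strings read AACCACA and are in capitals.
Runx1 distal, chr16:92826025-92826054: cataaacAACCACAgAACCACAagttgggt
Runx2 distal, chr17:44814583-44814612: cacaaacAACCACAgAACCACAagtgcggt
Runx3 distal, chr4:135120503-135120532: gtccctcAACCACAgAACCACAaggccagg

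With the start as base 1, the first string of the pair begins at base 28 at Runx1 and at base 23 at Runx2, but 135 bases before the start at Runx3. The Runx2 start in these promoter sequences is at position 44814627, another annotated TSS than the outermost one, at 44814797, from which the plot of Runx2 peaks is drawn. Of the 30 bases of Runx1, 27 were identical in Runx2 and 19 in Runx3. The lines were aligned on the pair, so both strings of the pair match by the choice of lines. These counts are therefore no measure of likeness outside the pair. The arrangement was searched for after it had been seen at Runx1, and it was present in 6 of 32851 promoters (0.0183%), namely those of Runx1, Runx2, Runx3, Gm15462, Gm16225 and Olfr24. At least 1 RUNX string was in 9.27% of promoters. Among all shared windows, 3 held the tandem pair (0.0274%), at Runx1, 20.2 kb upstream of the chemokine gene Ccl2 and 17.9 kb upstream of AY512915. No RUNX string was found in the promoter sequences of Cbfb, Cbfa2t3 and the proximal starts of Runx1 and Runx3. The proximal start of Runx2 had no entry among these sequences and was not searched.

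SMAD4 peaks at these 3 distal starts were unequal. Both replicates had a peak that covered the pair at Runx1. At Runx2 the peak of replicate 2 lay beside the pair, which was within 100 bp of its summit. A further RUNX string (chr17:44814702-44814708) lay inside this peak, 26 bp from its summit. At Runx3 neither replicate had a peak at the distal start.

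Genes whose products act with RUNX proteins were listed as a group of 22, with corepressors, histone acetyltransferases, a kinase and hematopoietic partner factors. Of these, 18 (81.8%) had a shared region in the window and 10 (45.5%) were the nearest gene of one, with a median of 2 regions. Over all protein-coding genes these shares were 54.9% and 21.5% and the median was 1. The list was chosen with earlier results of these data known, so its shares are descriptions only. Hipk2, a kinase that phosphorylates RUNX1 and p300, had the most, with 9, of which 4 were nearest to it; the strongest of the 9 was nearest to Tbxas1. Tle3, a Groucho corepressor that RUNX proteins recruit, had 6, all nearest to it, with folds of up to 21.1 and 34.3. Fli1, an ETS factor, had 5, all nearest to it, with folds of up to 10.4 and 18.5. Tle4, Sin3a and Tal1 had 4 each, which were all nearest to Tle4 but included only 1 nearest to Sin3a and 1 nearest to Tal1. Crebbp, Hdac1, Gata1 and Runx1t1 had none.

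Of 15 genes known as RUNX targets in blood cells, 10 (66.7%) had a shared region in the window and 5 (33.3%) were the nearest gene of one, beside 54.9% and 21.5% of all genes. No test of either list was made, and this list too was chosen with earlier results of these data known. Gfi1, which encodes a transcriptional repressor, had 6, of which 4 were nearest to it, with folds of up to 20.5 and 30.2. Spi1, the gene of the myeloid factor PU.1, had 5 that were all nearest to it, and the strongest had folds of 7.15 and 7.22. The 10 regions in the window of Pf4, a platelet chemokine gene, were all nearer to other genes. Itgal, which encodes the integrin LFA-1 α chain, had 4, of which 1 was nearest to it. Csf2, Il3, Mpo and Zbtb7b were among those with none. For comparison, 6 of 6 C/EBP genes and 9 of 13 ETS genes had a region in the window, and 4 and 7 were the nearest gene of one. The highest counts in the window were 15, for Cebpb, and 13, for Etv6. Among the C/EBP genes, the neighbors Cebpa and Cebpg, which had the same strongest region, followed with 5 each. Cebpe and Ddit3 came next with 3 each. Among the ETS genes, Spi1, Elf1 and Fli1 followed with 5 each, while Spib, Elf5, Erg and Gabpa had none. With 15 regions Runx1 equaled Cebpb, although no region of Cebpb was nearest to that gene's own TSS and 11 of the 15 at Runx1 were.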

How the data were processed

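SMAD4 binding was measured by HT-ChIPmentation in AMs of wild-type mice (2 precipitations, 2 inputs). Per the labels and the study's methods, the authors trimmed reads (cutadapt), aligned them to mm10 (Bowtie2), filtered them (SAMtools) and called peaks in each precipitation with MACS3 against input, at a q-value of at most 0.05. The pairing of inputs is not given in the sources used here, nor whether the replicates came from separate mice. The lists deposited by the authors hold a fold ratio, a −log10 p-value and q-value, an integer score (not used) and a summit per peak. MACS3 adds 1 to pileup and control in the fold. Pileups were solved from fold and p, and tested on simulated data.

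Curated transcripts were those of RefSeq (45657 of 26089 genes). The nearest gene was that of the closest TSS. Promoters ran from 1 kb upstream to 100 bp downstream of a TSS. A region's summit was the mean of the summits of its strongest peak in each list. Strings were searched on both strands within 100 bp of summits. Intervals were Clopper-Pearson for shares and Poisson for fragments. The text names the 6 strongest regions of each gene by the lower fold, regions in promoters, the strongest peak of 1 list alone, and, of each gene list, the 4 genes with the most regions (ties included) and those without one, except 1 gene that is not reported here. The 5 genes, the gene lists and the strings were chosen with earlier results of these data known. Python 3.11.15, numpy 2.4.6, pandas 2.3.3, scipy 1.17.1 and pysam 0.24.0 were used. Alternatives for window, overlap, threshold, gene models and strings are given in the closing section.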

Additional observations from a re-analysis of the deposited data

How the results depend on the processing

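Of 106 alternative values, 89 stayed within the limits set for an unchanged result. These limits were wide. The partner share could move by its SD over the replicates (20.7), and counts could change by a set factor. The RUNX string share could lie anywhere in its interval (16.4% to 57.3%), which nearly reaches the 16.3% of all shared regions. The number of unchanged values therefore says little about stability. With a reciprocal overlap of 50% in place of 1 bp, shared regions at the 5 genes fell to 15, those at Runx1 to 8, and the mean share of peaks with a partner was 47.4%. The cause was not tested. Taking the peaks of 1 replicate alone in place of shared regions gave 25 to 43. With the wider windows, in place of the nearest gene, the partner list had 18 genes with a region within 100 kb, and the RUNX target list 10 within 100 kb and 8 within 50 kb; the windows hold more regions by construction. Runx3 and Cbfa2t3 had 3 regions each within 200 kb, Cbfa2t3 had 1 when predicted transcripts were added, and Cbfb had 0 within 50 kb, in the gene body or by nearest TSS. From the peaks of replicate 2 alone, Runx2 had 15, Cbfb 3, Runx3 2 and Cbfa2t3 1. The share of windows with a RUNX string was 30.4% within 50 bp of summits (9.31% of all windows), 39.1% within 200 bp (24.7%), 43.5% with the shorter strings TGTGGT and TGCGGT (28.9%) and 39.1% over whole regions (28.0%). From replicate 2 alone it was 32.6% (15.0% of all its peaks), and from replicate 1 alone 36.0% (13.1%). No paired analysis was possible because no test was made and the replicate numbers only follow the order of the samples. The lowest summits held 9 fragments in replicate 1 and 7 in replicate 2, where the counting error is largest relative to the count.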
